A study of Mus musculus with 36 samples.

Results

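Complement is a cascade of serum and tissue proteins that tags targets for removal, and in brain it is known for tagging synapses and debris for microglia. C1q, a recognition molecule built of the chains encoded by C1qa, C1qb and C1qc, starts the classical pathway together with the proteases C1r and C1s. These cleave C4 and C2 to form the enzyme that cleaves C3, on which all pathways converge, and the C1 inhibitor, encoded by Serping1, shuts off C1r and C1s. In brain, C1q transcripts come mainly from microglia, whereas C4b is expressed by astrocytes and other brain cells and C3 is made in bulk by the liver.

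The transcripts described here are the 7 complement genes C1qa, C1qb, C1qc, C4b, C4a, C3 and Serping1, of 24883 rows in all. They were taken by exact symbol, each stood on 1 row in both tables, and all 7 passed the filter on low values, a mean rescaled level of at least 1. The set was chosen by measured values of the comparison between diets, in which C4b stood out, so differences between diets are given below for these 7 genes as a description, with no test. Tests are given for measures on which that choice did not rest, namely the time of day and the variation between libraries of a group. Tests of whether the diets differed in rhythm, or by time point, are also given. These use the same values of the diets and so are not fully separate from the choice.

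RNA came from dissected tissue of adult C57BL/6J mice in which the suprachiasmatic nucleus (SCN), the site of the central circadian clock, was enriched. One set of animals was fed normal chow and the other a high-fat diet, each for 10 weeks, with no other treatment or genotype in the labels. Each diet had 18 libraries, 3 at each of zeitgeber times (ZT) 0, 4, 8, 12, 16 and 20, where ZT counts hours in the light cycle. Whether the 3 libraries in each group represent different animals is not in the labels, and p-values measure only the spread between these samples.

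Levels are taken as FPKM, sequenced fragments relative to transcript length and library size, and were rescaled so that each library sums to 1000000. On that reading they can be compared between genes. Deposited totals ran from 302899 to 432336 per library, and FPKM does not give the number of reads. All 10 SCN markers were detected, among them Avp, the vasopressin gene, at 1632 ± 722 rescaled FPKM under chow and 1831 ± 1160 under high-fat diet (SD, n = 18 each). Some libraries stood apart in transcripts of other tissues. In 3 libraries Alb, the liver gene for serum albumin, exceeded 10 times its median, namely chow ZT 0 replicate 1, chow ZT 4 replicate 1 and high-fat ZT 0 replicate 3. The sum of 12 liver markers exceeded 5 times its median in 8 libraries, 4 per diet. The sum of 8 striatum markers exceeded 3 times its median in 2 libraries, chow ZT 12 replicate 3 (5.75 times) and high-fat ZT 16 replicate 3 (7.40 times).

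The pair C4b and C4a are near-identical copies, so how reads were divided between them bears on both values. In GENCODE release M21 on GRCm38, C4b lies at chr17:34728380-34743882 and C4a at chr17:34809092-34823464, both on the minus strand and 65209 bases apart. C4a is known in mice as the sex-limited protein gene, and that annotation gives it the type processed transcript, with no coding sequence. Their main transcripts, those with the longest coding sequence or else the longest exons, each have 41 exons and were identical at 96.1% of 5367 aligned bases, with 207 differences and a longest identical run of 433 bases. Identical runs of 100 or more bases covered 38.4% of the C4b transcript, and a read that lies within such a run cannot tell the copies apart. The stretch of 90 bases that differed most, in exon 21, is shown because reads there can separate the copies. Capitals mark its 14 differing bases, in the sense of the transcript (C4b at chr17:34735430-34735519, C4a at chr17:34816086-34816175, minus strand, GRCm38).
C4b: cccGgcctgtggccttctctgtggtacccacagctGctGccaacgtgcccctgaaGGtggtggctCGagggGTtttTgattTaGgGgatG
C4a: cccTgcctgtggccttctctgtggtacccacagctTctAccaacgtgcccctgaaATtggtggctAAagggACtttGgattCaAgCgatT

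No other pair among the 7 shared such stretches: the longest run of identical bases between the main transcripts of any other pair was 15. The C1q chain genes lie side by side within 18675 bases of chromosome 4, all on the minus strand: C1qb at chr4:136880129-136886187, C1qc at chr4:136889804-136893065 and C1qa at chr4:136895917-136898803. C3 lies at chr17:57203970-57228136 and Serping1 at chr2:84765387-84775444.

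**Figure D1:**
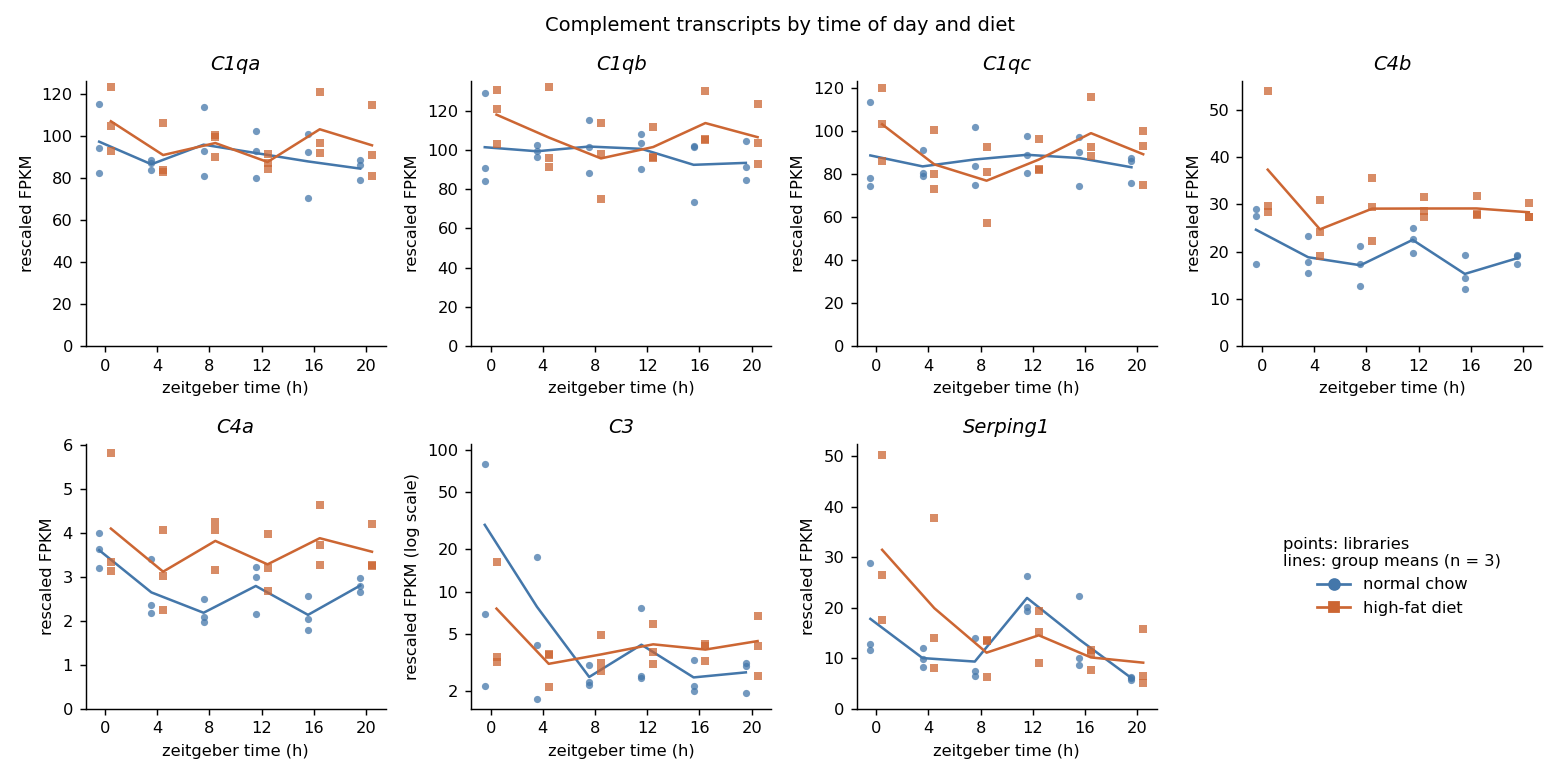
Rescaled FPKM (y axis, from 0 except for C3, which is on a log scale) of the 7 complement transcripts against zeitgeber time in hours (x axis). Points are libraries and lines join group means (n = 3); high-fat C4b libraries lie above all chow libraries at ZT 8, 12, 16 and 20, while C1q libraries of the diets intermix and single libraries stand out for C3 and Serping1 at ZT 0.

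The C1q chains were the most abundant complement members, and their levels differed little between diets and over the day. C1qb had a rescaled level of 98.2 ± 12.6 under chow and 107 ± 15.7 under high-fat diet (SD, n = 18 each). C1qa had 90.7 ± 11.7 and 96.9 ± 12.9, and C1qc had 86.5 ± 10.8 and 90.03 ± 15.3. The ranges overlapped widely. Chow libraries ran from 73.6 through a median of 100.5 to 129 for C1qb and high-fat libraries from 74.9 through 104 to 132.

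Among the 7 transcripts the order of levels was C1qb, C1qa, C1qc, C4b, Serping1, C3 and C4a. C1qb exceeded C1qa in 34 of 36 libraries and C1qa exceeded C1qc in 29, although the means of these neighbours differed by less than 1 SD between libraries. C1qc exceeded C4b in 36 of 36. C4b exceeded Serping1 in 33 and Serping1 exceeded C3 in 34. C3 and C4a had medians of 3.24 and 3.17 rescaled FPKM, with C3 the higher in 23 of 36 libraries, so the last neighbours in the order were not apart.

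C4b, which encodes the complement component C4 that C1s cleaves, had higher levels under high-fat diet at every time of day. In chow libraries its rescaled level ran from 12.1 through a median of 19.2 to 29.0, and in high-fat libraries from 19.1 through 28.5 to 54.0. The means were 19.5 ± 4.69 and 29.6 ± 7.11 (SD, n = 18 each). Of the high-fat libraries, 17 of 18 lay above the chow median and 8 above the highest chow library.

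At ZT 0 the C4b levels were 29.0, 27.6 and 17.3 in the chow libraries and 28.4, 29.5 and 54.0 in the high-fat libraries. At ZT 4 they were 17.7, 15.4 and 23.3 against 24.1, 19.1 and 30.8. The groups overlapped at both of these times. At ZT 8 the levels were 17.3, 12.7 and 21.3 under chow and 35.6, 29.4 and 22.2 under high-fat diet. At ZT 12 they were 19.7, 25.0 and 22.7 against 27.4, 28.5 and 31.5. At ZT 16 they were 14.4, 12.1 and 19.3 against 28.0, 31.7 and 27.7. Each of these 3 time points had all high-fat libraries above all chow libraries. The same held for 14%, 1.47% and 5.05% of all rows at these times. So did ZT 20, as for 3.17% of rows, at which the chow libraries had 17.3, 19.2 and 19.3 and the high-fat libraries 27.3, 27.3 and 30.4. The separation at ZT 8 depended on the rescaling. In deposited FPKM the groups overlapped there, with a chow library at 7.98 and a high-fat library at 7.85.

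The ratio of the C4b group means, high-fat to chow, was smallest at ZT 12 (1.30) and largest at ZT 16 (1.91). The mean was higher under high-fat diet at 6 of 6 time points, as it was in 0.501% of the 15173 rows tested. In rescaled values the groups did not overlap at 4 time points, which held for 0.0198% of rows. Those 3 rows were C4b, Serpina3n, a gene known as a marker of reactive astrocytes, and the predicted gene Gm5086; the other two are named because of these values. Since the comparison of diets led to C4b, nothing is read from these shares.

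On the log2(rescaled FPKM + 1) scale, C4b was 0.59 ± 0.091 (SE) higher under high-fat diet over all time points, and the median row differed by -0.0005. In that comparison 0.0132% of the 15173 rows were called; because it served to choose the set, nothing is read from it for C4b. Summing C4b and C4a into 1 value gave a difference of 0.57. The difference was 0.57 without the 3 libraries rich in Alb and 0.64 without the 8 rich in liver transcripts. High-fat ZT 0 replicate 3 held the highest C4b level, and without it the difference at ZT 0 went from 0.55 to 0.26. At ZT 4 the difference went from 0.37 to 0.20 without high-fat replicate 3. High-fat ZT 0 replicate 3, which is rich in Alb, also had the highest summed markers of reactive astrocytes, of vessels, and of meninges and fibroblasts.

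C4a followed C4b at a much lower level. Its rescaled level was 2.69 ± 0.624 under chow and 3.62 ± 0.817 under high-fat diet (SD, n = 18 each). Chow libraries ran from 1.79 through 2.60 to 3.99 and high-fat libraries from 2.26 through 3.30 to 5.82. The high-fat libraries lay above all chow libraries at ZT 8, 16 and 20, a count of 3 or more time points that 0.198% of rows reached. At ZT 8 the C4a levels were 2.08, 1.97 and 2.49 under chow and 4.06, 4.24 and 3.15 under high-fat diet. The largest ratio of C4a means was 1.82, at ZT 16, the same time as for C4b, and the smallest was 1.14, at ZT 0. The direction at ZT 0 rests on high-fat replicate 3, which is rich in Alb: its C4a level was 5.82 against 3.13 and 3.33 in the others, and without it the log2 difference turned from 0.11 to -0.12. On the log2 scale the difference over all time points was 0.32 ± 0.078 (SE), understated at so low a level by the added 1: the log2 ratio of the means was 0.43. The ratio of C4b to C4a ran from 5.41 to 10.7, with a mean of 7.27 ± 0.902 under chow and 8.26 ± 1.26 under high-fat diet. Because part of the C4a value may be reads of C4b, the C4a result is uncertain.

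C3, the component on which the pathways converge, was low in most libraries and very high in a few. Chow libraries ran from 1.75 through a median of 2.78 to 79.5 rescaled FPKM, and high-fat libraries from 2.12 through 3.60 to 16.1. The 3 highest C3 levels were in the 3 libraries rich in Alb: 79.5 in chow ZT 0 replicate 1 (Alb 1890), 17.5 in chow ZT 4 replicate 1 (Alb 335) and 16.1 in high-fat ZT 0 replicate 3 (Alb 285). With them the mean was 8.22 ± 18.2 under chow and 4.50 ± 3.11 under high-fat diet. Without them it was 3.18 ± 1.74 (n = 16) and 3.82 ± 1.18 (n = 17). The direction of the C3 difference thus depended on these libraries: the log2 difference was -0.01 ± 0.289 (SE) in all and 0.26 without them. Without chow ZT 0 replicate 1 alone it was 0.21.

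Serping1, the gene for the C1 inhibitor, varied more between time points than between diets. It ran from 5.73 through a median of 10.8 to 28.9 rescaled FPKM under chow and from 5.06 through 13.5 to 50.2 under high-fat diet. At ZT 0 the levels were 28.9, 12.9 and 11.6 under chow and 17.6, 26.5 and 50.2 under high-fat diet. At ZT 12 they were 19.4, 20.1 and 26.3 against 9.04, 19.3 and 15.2. Here all high-fat libraries were below all chow libraries, as for 3.07% of rows at that time, though 19.3 and 19.4 nearly touched. In deposited FPKM the groups at ZT 12 overlapped, with a high-fat library at 7.33 and a chow library at 7.30. The highest Serping1 level of each diet, 28.9 under chow and 50.2 under high-fat diet, was at ZT 0 in a library rich in Alb. The second highest of all, 37.7, was in high-fat ZT 4 replicate 3, which is not among those libraries. The summed markers of meninges and fibroblasts were highest in high-fat ZT 0 replicate 3 (594) and next highest in high-fat ZT 4 replicate 3 (411). The log2 difference at ZT 0 was 0.78 in all, 0.39 without high-fat replicate 3, 1.17 without chow replicate 1 and 0.78 without the 3 libraries rich in Alb. Without those 3, Serping1 averaged 12.2 ± 6.46 under chow (SD, n = 16) and 14.0 ± 8.18 under high-fat diet (n = 17). The highest group mean was 21.9 at ZT 12 under chow and 31.5 at ZT 0 under high-fat diet, and the lowest was at ZT 20 in both diets, 6.07 and 9.12. The log2 difference between diets over all time points was 0.19 ± 0.195 (SE), and 0.09 without high-fat ZT 4 replicate 3.

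Between diets the C1q chains differed by 0.09 ± 0.059 (C1qa), 0.12 ± 0.068 (C1qb) and 0.05 ± 0.070 (C1qc) on the log2 scale. C1qb alone had a time point without overlap in rescaled values. At ZT 16 the levels were 102, 73.6 and 101 under chow and 106, 105 and 130 under high-fat diet. That pattern was found in 5.05% of rows at that time. In deposited FPKM these groups overlapped, with a chow library at 39.0 and a high-fat library at 36.5. The level of 130 is that of the library richest in striatum markers, which also had the highest microglia sum, 883. Without that library the C1qb difference at ZT 16 went from 0.30 to 0.20. It went to 0.15 without chow replicate 2, the library at 73.6. In all, 6 of 7 members had a positive log2 difference, against 49.5% of all rows, with C3 the exception at -0.01. That count is not stable: it was 7 of 7 without the 3 libraries rich in Alb and 3 of 7 with tissue scores in the fit (C4b, C4a and C1qb). The median of the 7 was 0.12.

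**Figure D2:**
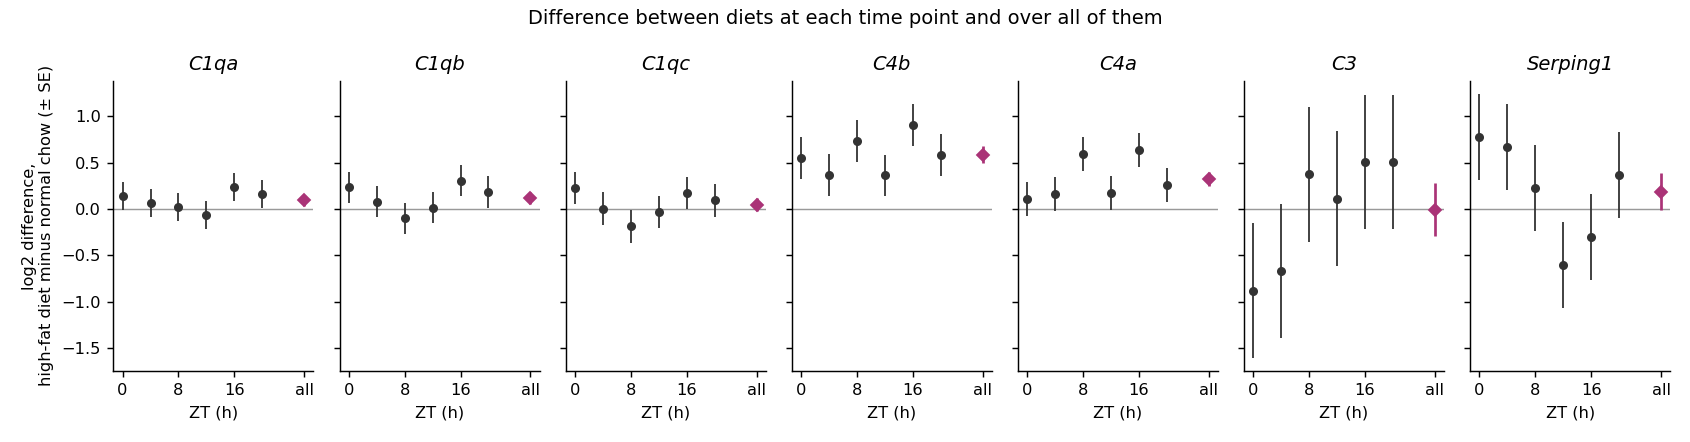
Difference between diets on the log2(rescaled FPKM + 1) scale (y axis, high-fat minus chow, ± SE) at each zeitgeber time in hours and over all of them (diamond) for each transcript. C4b is positive at all 6 time points and 0.59 over all of them, C3 is at -0.01 with the widest error, and Serping1 is at 0.78 at ZT 0 (-0.11 with tissue scores in the fit) and -0.61 at ZT 12 (-0.10).

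No complement member passed a test for a 24 h rhythm. In chow 0 of 7 were called by limma (cosine and sine terms, Benjamini-Hochberg adjusted p under 0.05), against 0.845% of the 15150 rows tested. In high-fat diet 0 of 7 were called against 0.0728% of 15106 rows, and with the diets together 0 of 7 against 2.18% of 15173 rows. None of the 7 had an unadjusted p under 0.05 in these fits, against 18.2% of rows in chow, 8.64% in high-fat diet and 13.1% in both. With so few members and so small a share of all rows called, 0 of 7 does not set the members apart.

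The rhythm fit nearest to the threshold was C4a in chow, with a peak-to-trough fold of 1.27 on the log2 scale with 1 added, a fitted peak at ZT 23.7 ± 1.60 h (SE) and an adjusted p of 0.329 (limma). C4b had fitted folds of 1.17 in chow and 1.13 in high-fat diet, with adjusted p-values of 0.754 and 0.839 (limma). The C1q chains had fitted folds of 1.04 to 1.10 in chow and 1.10 to 1.24 in high-fat diet. C3 had a fitted fold of 2.55 in chow (adjusted p = 0.469, limma), a fit that includes the libraries rich in Alb at ZT 0 and ZT 4. Without the libraries rich in liver transcripts its adjusted p was 0.985.

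For Serping1 the fitted peak was at ZT 11.3 ± 3.10 h in chow and ZT 2.45 ± 1.92 h in high-fat diet, with folds of 1.45 and 1.95. Its difference in rhythm between diets had a lower p than that of any other member and did not pass (adjusted p = 0.454, limma). Over all rows 0% passed that test, with 13.2% at an unadjusted p under 0.05. The test of any difference among time points, with both diets in the fit, gave Serping1 an adjusted p of 0.064 (limma).

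Nor did the difference between diets vary detectably with the time of day. In the limma test of the diet by time point terms 0 of 7 members and 0% of rows were called, and 0 of 7 members and 5.09% of rows had an unadjusted p under 0.05. The adjusted p was 0.754 for C4b and 0.720 for both C4a and Serping1. The larger C4b ratios at ZT 8 and 16 are therefore not shown to differ from those at the other times.

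The members fell into sets that varied together between libraries of the same diet and time. Across 36 libraries, log2 values less their group mean were compared for 21 pairs, with 100000 permutations within groups, and 8 pairs passed after Benjamini-Hochberg adjustment. C1qb and C1qc had Pearson r = 0.95 (p = 1e-05, the smallest these permutations can give, adjusted p = 0.00021) and Spearman rho = 0.95 (p = 1e-05). Without the 2 libraries farthest from the median of C1qb, r was 0.95. C1qa with C1qb had r = 0.84 and C1qa with C1qc r = 0.80 (permutation p = 3e-05 and adjusted p = 0.00021 for both), with rho of 0.86 and 0.82 (p = 4e-05 for both), and without 2 libraries r was 0.82 and 0.80.

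C4b and C4a had r = 0.77 (permutation p = 8e-05, adjusted p = 0.00042) and rho = 0.75 (p = 0.0001), and r = 0.72 without 2 libraries. The copies can share reads, and the part of that in the relation was not tested. C4b with Serping1 had r = 0.63 (permutation p = 0.00297, adjusted p = 0.0122), rho = 0.59 (p = 0.00413) and r = 0.58 without 2 libraries. The other pairs that passed were C4a with Serping1 (r = 0.61), C1qa with C4b (r = 0.58) and C3 with Serping1 (r = 0.45, adjusted p = 0.034 by permutation). For C3 with Serping1, r was 0.35 without 2 libraries and the adjusted p of rho was 0.085, so that relation rests in part on those libraries. C3 and the C1q chains had r between -0.16 and 0.01.

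The C1q chains kept nearly fixed ratios, with 1 exception. C1qb over C1qa had a median of 1.10 and C1qc over C1qa of 0.956 across the 36 libraries. In high-fat ZT 8 replicate 2 these ratios were 0.752 and 0.574, and the next lowest were 0.962 and 0.828. This library had the lowest deposited total, 302899, so its levels were scaled up most, though a ratio within a library does not depend on the scaling. In that library C1qa stood at 99.6 rescaled FPKM, near its high-fat median of 92.4, while C1qb at 74.9 and C1qc at 57.1 were the lowest levels of any high-fat library. Without it the log2 difference of C1qc between diets went from 0.05 to 0.08.

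**Figure D3:**
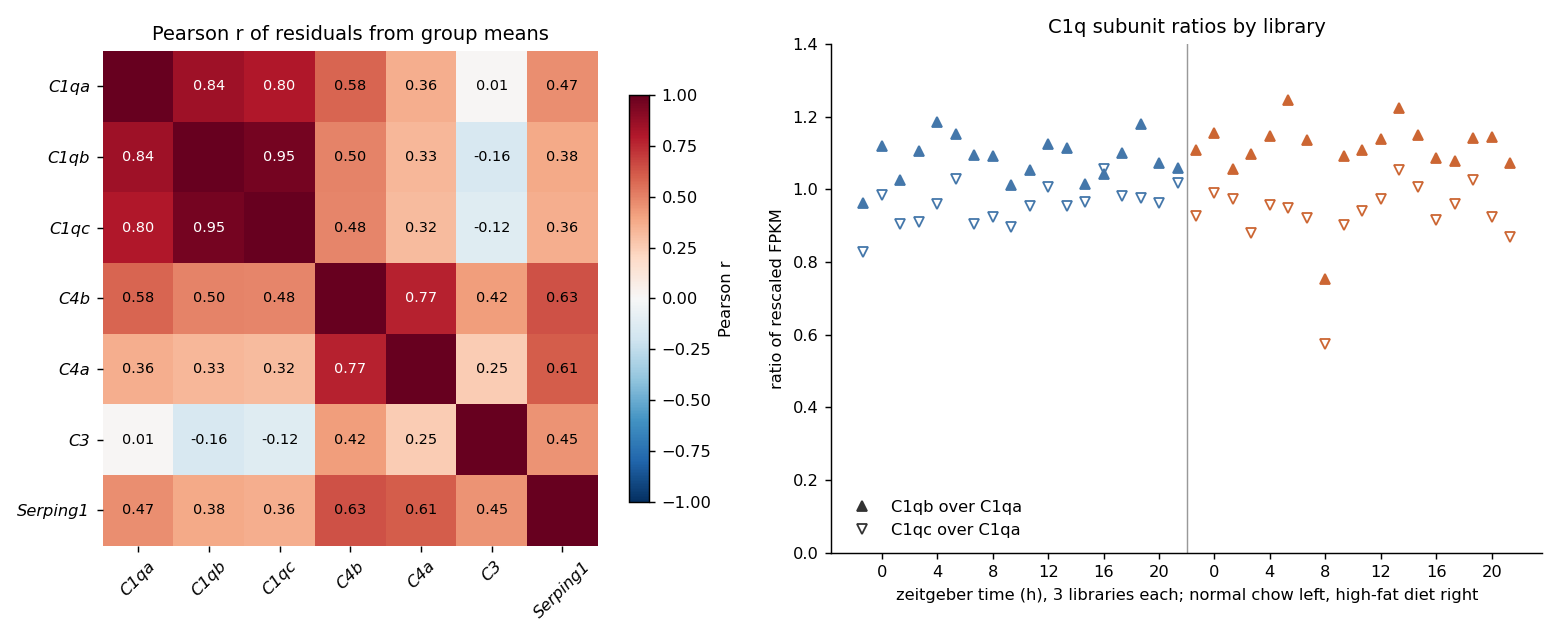
Left, Pearson r between the 7 transcripts of log2 values less the mean of their diet and time group (36 libraries); right, C1qb over C1qa (filled) and C1qc over C1qa (open) ratios in each library by zeitgeber time in hours, chow then high-fat diet. The C1q chains form a block with r of 0.80 to 0.95, C3 is near 0 against them, and high-fat ZT 8 replicate 2 falls below all other libraries in both ratios.

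Marker genes of the cell types known to express these members were set beside them, over 42 relations of 7 members with 6 marker lists, of which 13 passed (permutation within groups, Benjamini-Hochberg). In bulk tissue, fewer cells of a type and less RNA per cell cannot be told apart. The C1q chains went with 15 microglia markers: C1qa had r = 0.89 (permutation p = 1e-05, the smallest possible, adjusted p = 0.00042), rho = 0.87 (p = 1e-05) and r = 0.87 without 2 libraries. C1qc and C1qb had r of 0.75 and 0.73 (adjusted p = 0.0021 and 0.00227 by permutation). C4b went most with 10 astrocyte markers (r = 0.71, permutation p = 0.00281, adjusted p = 0.013, rho = 0.61, p = 0.00469, r = 0.62 without 2 libraries).

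C3 went with the liver markers (r = 0.89, permutation p = 3e-05, adjusted p = 0.00063, rho = 0.80, p = 7e-05, r = 0.86 without 2 libraries). Serping1 went most with 11 markers of meninges and fibroblasts (r = 0.80, permutation p = 0.00027, adjusted p = 0.00227, rho = 0.77, p = 0.00019, r = 0.73 without 2 libraries). These markers had their highest group mean at the same times as Serping1: 272 ± 53.8 rescaled FPKM in sum at ZT 12 under chow and 376 ± 197 at ZT 0 under high-fat diet (SD, n = 3). The part of these cells in the Serping1 pattern over the day was not tested. Serping1 also went with the liver markers (r = 0.60, permutation p = 0.00085, adjusted p = 0.0051, rho = 0.66, p = 0.00033, r = 0.58 without 2 libraries). C4a went with the meninges and fibroblast list (r = 0.68, adjusted p = 0.0051 by permutation). The other relations that passed crossed these lists, with adjusted p of 0.013 to 0.041 by permutation. C1qa went with astrocyte markers (r = 0.58), and C4b and C4a with microglia markers (r = 0.58 and 0.53). C4a and Serping1 went with markers of vessel cells (r = 0.63 and 0.60). A member was thus not tied to a single list.

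**Figure D4:**
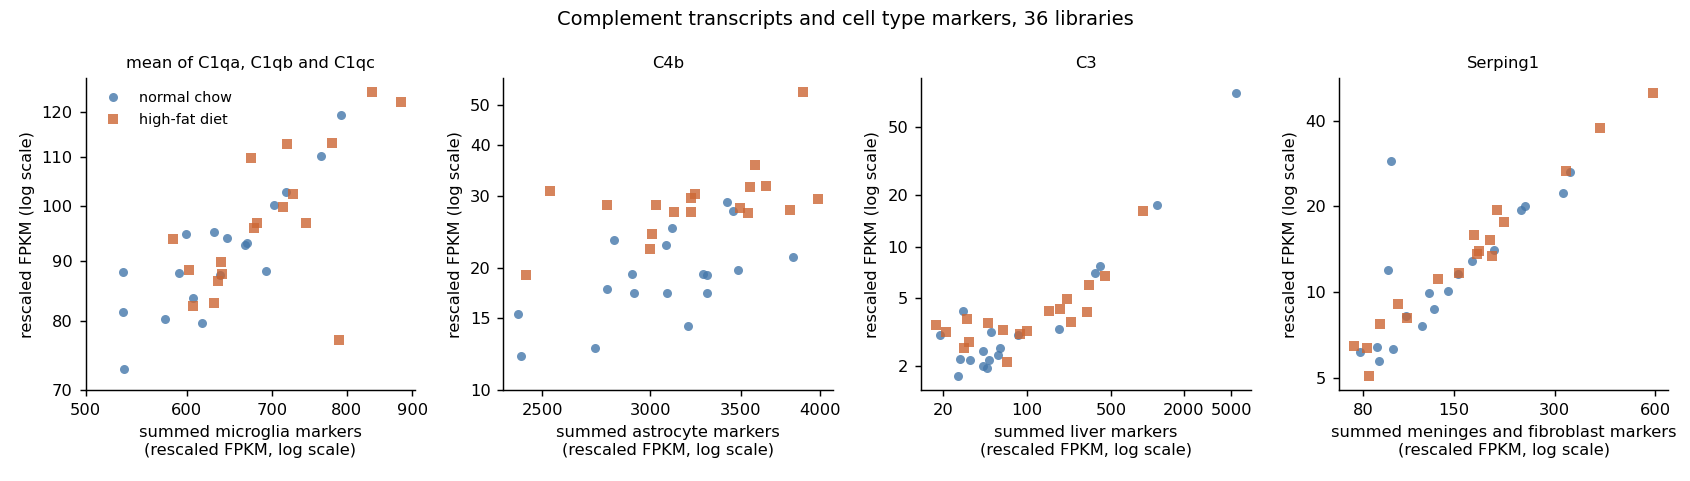
Rescaled FPKM of the C1q chains (mean of the 3), C4b, C3 and Serping1 (y axes, log scale) against summed marker levels of microglia, astrocytes, liver, and meninges with fibroblasts (x axes, log scale) in 36 libraries. C3 rises with liver markers through the 3 libraries rich in Alb. For C4b high-fat libraries lie mostly above chow libraries, and the part of astrocyte level in that was not tested. The C1q point that lies below the other libraries of like microglia level is high-fat ZT 8 replicate 2.

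In several of these lists most markers also had a higher mean under high-fat diet. Means in these counts are of log2(rescaled FPKM + 1), while sums are of rescaled FPKM. The microglia markers had a higher mean in 15 of 15, with sums of 534 to 792 under chow and 585 to 883 under high-fat diet, and 9 of 10 astrocyte markers did, with sums of 2399 to 3820 and 2431 to 3988. For reactive astrocytes it was 9 of 10 markers (82.4 to 134 and 86.2 to 250), for vessels 14 of 14 (236 to 330 and 237 to 545), for meninges and fibroblasts 11 of 11 (78.2 to 334 and 74.8 to 594), for liver 8 of 12 (19.0 to 5425 and 17.4 to 924), and for blood all 6 with a row of 7 listed (738 to 4192 and 781 to 3606). The upper ends of 250, 545 and 594 all came from high-fat ZT 0 replicate 3. No marker of these lists was at 0 on average, and 0 of them were called between diets, against 0.0132% of all rows. Over all rows 49.5% had a positive difference. The liver direction depended on the measure. In rescaled FPKM Alb averaged 147 under chow and 52.2 under high-fat diet, while the median liver sum was 49.2 and 93.2. Fewer markers were higher for oligodendrocytes (1 of 9), neurons (2 of 7), choroid plexus (3 of 8), and ependymal cells with tanycytes (3 of 6). For the SCN it was 6 of 10, for border macrophages 7 of 7 and for striatum 8 of 8. With the scores of 5 lists (microglia, vessels, meninges, blood and liver) in the fit, the C4b difference was 0.47. Scores of astrocytes, the list with which C4b went most, and of reactive astrocytes were not in that fit. Their part in the C4b difference was not tested. In that fit C1qb was at 0.03, while C1qa, C1qc and Serping1 changed sign, to -0.005, -0.07 and -0.05, and C3 was at -0.10. In that fit the C4b difference was 0.31 at ZT 0 and 0.16 at ZT 4. For Serping1 the difference at ZT 0 turned from 0.78 to -0.11 and that at ZT 12 went from -0.61 to -0.10, and the C1qb difference at ZT 16 turned to -0.02.

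Among 12197 rows with a mean of at least 5, the genes most like each member over the 36 libraries were found from the same log2 values less group means. For C4b they were Steap3, a ferrireductase gene (r = 0.82), Gfap, the astrocyte intermediate filament gene (r = 0.79), Pros1, which encodes protein S (r = 0.78), Vim, encoding vimentin (r = 0.78), and the cathepsin gene Ctsh (r = 0.77). For the mean of the C1q chains they were Trem2, a microglial receptor gene (r = 0.93), Prdx6 (r = 0.86), the signalling adaptors Fcer1g (r = 0.86) and Tyrobp (r = 0.85), and Cyba (r = 0.85). Trem2 and Tyrobp are on the microglia list too. For C3 they were the liver enzyme genes Uox (r = 0.97) and Gnmt (r = 0.95), then Selenbp2, H2-Q10 and Hp (r = 0.92 to 0.93). For Serping1 they were Serpind1, the heparin cofactor gene (r = 0.95), the gap junction gene Gjb2 (r = 0.92), Itih2 (r = 0.92), Vtn (r = 0.90) and Gstm2 (r = 0.90). These are descriptions, since the libraries share their dissection.

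RefSeq promoters, 250 bases before the start on GRCm38.p6, were matched for 3 of the 7 members, C1qb, C1qc and C3. Promoters of C1qb and C3 are shown because these genes varied with different marker lists, microglia and liver, and hardly with each other (r = -0.16). Capitals mark a match to GAGGAA, the core bound by PU.1 and other ETS factors, in C1qb (chr4:136886201-136886450, minus strand) and to TTGCNNAA, the C/EBP motif, in C3 (chr17:57228137-57228386, minus strand).
C1qb: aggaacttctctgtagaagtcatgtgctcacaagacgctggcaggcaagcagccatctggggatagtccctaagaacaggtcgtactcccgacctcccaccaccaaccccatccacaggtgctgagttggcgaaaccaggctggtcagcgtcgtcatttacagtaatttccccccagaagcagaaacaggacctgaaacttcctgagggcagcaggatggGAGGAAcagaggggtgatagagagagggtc
C3: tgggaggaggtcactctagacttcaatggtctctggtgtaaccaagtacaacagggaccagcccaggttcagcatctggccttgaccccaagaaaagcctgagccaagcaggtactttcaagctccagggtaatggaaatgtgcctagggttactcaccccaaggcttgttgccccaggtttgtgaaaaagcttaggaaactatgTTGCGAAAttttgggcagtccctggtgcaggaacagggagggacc

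On either strand, GAGGAA occurred at -30 in C1qb and at -193 in C1qc and was in 23.3% of all 32851 promoters, and TTGCNNAA occurred at -45 in C3 and was in 9.56%. The motifs TTCNNNGAA (STAT, 7.02% of promoters), that of the interferon response element (2.98%) and TATAAA (the box near many starts, 12.4%) did not occur in these 3 windows. A match is a description of the letters only.

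The rest of the complement system was described by a list of 53 genes, of which 51 had a row. Between diets 29 passed the filter on low values and 0 were called (limma), 20 with a positive difference and a median of 0.06, against 49.5% of all rows positive. At an unadjusted p under 0.05 there were 3, against 2.56% of all rows, each higher under high-fat diet: Itgb2 and Itgam, which encode the subunits of complement receptor 3 on microglia, by 0.19 ± 0.082 and 0.20 ± 0.093, and Clu, encoding the soluble regulator clusterin, by 0.12 ± 0.053 (log2, SE). Their unadjusted limma p-values were 0.026, 0.041 and 0.028, and none passed after adjustment. Clu was the most abundant of these, at 1083 ± 107 rescaled FPKM under chow and 1184 ± 168 under high-fat diet (SD, n = 18).

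By role, 4 of 4 tested receptors and 8 of 9 tested membrane regulators had a positive difference, as had 4 of 5 soluble regulators, 2 of 3 proteases, 1 of 3 lectin pathway genes, 1 of 3 genes of C2 and the alternative pathway and 0 of 2 terminal genes. Some of the negative signs stood beside a very high single chow library. C8g, C9, Mbl2, Cfb and Cfi had negative differences but higher medians under high-fat diet. Their highest chow levels were 33.0, 18.9, 27.8, 26.8 and 18.6 rescaled FPKM. Masp2, Colec11, Cfp and Cd46 were lower in their medians too. C2, whose product C1s cleaves beside C4, had 6.33 ± 1.78 rescaled FPKM under chow and 6.73 ± 2.29 under high-fat diet. C1s1, a gene for the C1s protease, had medians of 0.806 and 0.925, with a highest level of 8.64 under chow. Most terminal pathway genes were near 0 in their medians: C9 had 0.110 under chow and 0.209 under high-fat diet.

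Nor was any of the other complement genes called for a 24 h rhythm: 0 of 34 tested in chow, 0 of 25 in high-fat diet and 0 of 29 in both (limma), against 0.845%, 0.0728% and 2.18% of all rows. At an unadjusted p under 0.05 there were 7, 1 and 3, with 18.2%, 8.64% and 13.1% of all rows at that threshold. The lowest p-values in chow were those of Cr1l, a membrane regulator gene (adjusted p = 0.063, limma), and Colec12, a scavenger collectin gene (adjusted p = 0.112, limma). With the diets together they were those of C2 (fitted fold 1.47, peak at ZT 17.99, adjusted p = 0.145, limma) and Cfp, the properdin gene (fitted fold 1.46, peak at ZT 21.04, adjusted p = 0.269, limma).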

How the data were processed

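RNA of an SCN-enriched region was sequenced in 36 libraries, 18 per diet. Per the labels' protocols, total RNA was extracted from frozen tissue and libraries followed a stranded TruSeq mRNA protocol. The authors used Trimmomatic, TopHat and Cufflinks with builds mm10 and GRCm38, per the submitters' processing notes; versions and annotation are not given in the sources used here. The deposited values were taken as FPKM from their size and the naming of Cufflinks, since the column headers give no unit. They are in a table per diet, so how a table was made and the diet cannot be told apart. Of the values above 0, 288 lay under 1e-10 FPKM, less than a whole read would give, so counts and depth were not recovered.

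Here values were rescaled to 1000000 per library and transformed as log2(value + 1), so a fold of a low gene is understated. Rows with a mean of at least 1 were fitted with limma 3.58.1 (trend) in R 4.3.3: cosine and sine terms of 24 h per diet and over both, diet with time point as a factor, and their interactions. Tests were two-sided where a direction exists, p-values were Benjamini-Hochberg adjusted over all rows, and rows were called at an adjusted p under 0.05. The fit was tested on simulated data. Relations used residuals from 12 group means and 100000 permutations within groups (Python 3.11.15). Alternatives covered rescaling, pseudocount, filter, tissue scores and left-out libraries; leaving out the 3 libraries rich in Alb and the 42 marker relations were added after seeing the data. The members and gene lists were chosen with earlier results of these data known. Other complement genes are named where called, otherwise the 2 with the lowest p in a contrast and those with a defining role; genes like a member are the 5 with the highest r. Motifs were searched on both strands of RefSeq promoters.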

Additional observations from a re-analysis of the deposited data

How the results depend on the processing

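No complement member was called for a rhythm, a rhythm difference or a diet by time difference in any alternative run, including leaving out each of the 36 libraries. The C4b log2 difference between diets was 0.47 to 0.64 over the alternatives and 0.55 to 0.62 with 1 library left out, and C4a 0.22 (deposited FPKM, not rescaled) to 0.42 (pseudocount 0.1) and 0.30 to 0.35. The C3 difference changed sign with pseudocount 0.1 (0.05), without the libraries rich in liver transcripts (0.32) and in 10 of the fits with 1 library left out (range -0.12 to 0.21). C1qc was at -0.004 without the liver-rich libraries.

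Counts of rows called moved more. For the chow rhythm, 128 rows became 14 with 5 tissue scores, 45 without the liver-rich libraries, 50 for any difference among time points, 260 with median-of-ratios size factors and 48 to 162 with 1 library left out; for high-fat diet, 11 rows became 1 to 11, and 4 to 13. For both diets, 331 rows became 165 to 617. The comparison of diets called 2 to 5 rows, and at ZT 8 it called 1099 rows without high-fat replicate 1 against 0 with it.

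Same-numbered libraries of the diets had deviations correlated at -0.28 to 0.32, over 0.1 in 9 of 18 pairs. The numbers were not taken as pairs in the main fits. With the replicate block the C4b difference stayed 0.59, 7 rows in place of 11 were called rhythmic in high-fat diet, 2 rows were called between diets and 0 members were called in the rhythm and interaction tests; 12 of 18 chow libraries correlated best with their own number. Summing repeated rows was not run, since no member is repeated. FPKM gives no counting error.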
